A study of Mus musculus with 4 samples.

Results

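The insulin-like growth factor (IGF) system was examined in cultured aortic smooth muscle cells, which make up the media of the vessel wall, from mice with and without Cre-driven deletion of Mmp14, the gene of the membrane-type matrix metalloproteinase MT1-MMP. The 10 genes followed were the ligands Igf1 and Igf2, the receptors Igf1r and Igf2r, and the binding protein genes Igfbp2, Igfbp3, Igfbp4, Igfbp5, Igfbp6 and Igfbp7. Each was taken from the row of the array table that the platform annotation ties to that symbol alone, and each had 1 such row, so the family makes up 10 of the 22180 genes that could be named in this way. All 10 had a mean level above the median of all rows (a log2 value of 3.02) and were among the 12550 genes tested.

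The knockout group was 2 arrays of cells with the genotype SM22α-Cre(+)Mmp14(fl/fl)Apoe(−/−), and the control group was 2 arrays of cells with the genotype SM22α-Cre(−)Mmp14(fl/fl)Apoe(−/−). Both groups therefore lacked Apoe, the lipoprotein ligand whose loss raises plasma cholesterol, and both carried floxed Mmp14. They differed in Cre recombinase driven by the SM22α (Tagln) promoter, which is active in smooth muscle, so cells in which that promoter is silent would keep Mmp14. The mice had been fed a Western diet for 3 months, and the cells were grown from the thoracic aorta, after removal of the adventitia, and cultured for 5 days. The sources used here give neither the age nor the sex of the animals.

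IGF1 and IGF2 are secreted peptides that drive growth and survival through IGF1R, a receptor tyrosine kinase. IGF2R, also known as the cation-independent mannose 6-phosphate receptor, has no kinase domain. It carries IGF2 and newly made lysosomal enzymes to the lysosome. The binding proteins hold IGFs in plasma and matrix and either restrain or prolong their action until a protease cuts them. In the arterial wall IGF1 is known as a growth and survival factor of smooth muscle.

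No member passed the test across all genes. With limma, 0 of the 10 members had a Benjamini-Hochberg adjusted p under 0.05, against 0% of all 12550 genes tested, and their adjusted p-values ran from 0.445 to 0.990. At an unadjusted p under 0.05, 0 of the 10 members were found, against 11.7% of all genes tested (1465 genes). The median log2 difference of the members, knockout minus control, was -0.22, with 2 of 10 higher and 8 lower, beside a median of -0.05 and 58.3% of genes lower over all genes tested. Without single replicates the members' median ran from -0.37 (without knockout replicate 1) to -0.18 (without knockout replicate 2). The 2 arrays of one group lay wholly on one side of the other group's for 4 of the 10 members, against 44.3% of all genes tested. Igf1 was the only one of the 4 higher in the knockout arrays (16.7% of all genes tested), and Igf1r, Igf2r and Igfbp7 were lower (27.5%). The share of members without overlap was thus near that of all genes. The members were of 2 kinds. The arrays within a group lay close together for the ligands, Igf2r and Igfbp7, and farther apart in both groups for Igf1r and the other 5 binding proteins.

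Igf1r, Igf2r and Igfbp7 were the members with both knockout arrays below both control arrays. The bases upstream of their transcription starts are shown because the 3 genes lay on the same side in every array. They come from RefSeq on build GRCm38.p6, 5′ to 3′ on the strand of the gene, and end at the base before the annotated start. They cover chr7:67952007-67952256 (plus strand) for Igf1r, chr17:12769707-12769956 (minus strand) for Igf2r and chr5:77408046-77408295 (minus strand) for Igfbp7. Capitals mark the GC box, GGGCGG, searched on both strands.
Igf1r: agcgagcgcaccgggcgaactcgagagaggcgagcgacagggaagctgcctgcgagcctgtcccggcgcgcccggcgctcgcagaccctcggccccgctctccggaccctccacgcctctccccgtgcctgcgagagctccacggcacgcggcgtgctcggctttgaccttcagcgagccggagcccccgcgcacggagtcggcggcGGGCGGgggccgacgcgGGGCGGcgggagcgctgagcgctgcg
Igf2r: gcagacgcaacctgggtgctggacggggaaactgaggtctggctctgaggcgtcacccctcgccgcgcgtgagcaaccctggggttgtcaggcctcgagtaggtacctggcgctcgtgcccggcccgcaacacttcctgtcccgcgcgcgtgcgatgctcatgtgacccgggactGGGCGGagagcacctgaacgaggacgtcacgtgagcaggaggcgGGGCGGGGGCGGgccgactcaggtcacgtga
Igfbp7: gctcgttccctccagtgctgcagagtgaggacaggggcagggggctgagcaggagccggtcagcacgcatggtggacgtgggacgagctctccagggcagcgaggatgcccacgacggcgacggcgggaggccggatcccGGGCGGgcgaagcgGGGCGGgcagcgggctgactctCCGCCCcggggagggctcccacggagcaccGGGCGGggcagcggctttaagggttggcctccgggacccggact

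The window of Igf1r held 2 GC boxes, that of Igf2r 3 and that of Igfbp7 4, of which 1 was read on the opposite strand. Over all 32851 windows of 250 bases in the RefSeq table, 32.7% held at least 1 GC box and 12.4% held the TATA box, TATAAA, searched in the same way. Sites of the 2 motifs cannot overlap, since one holds only G and C and the other only T and A. All 10 members matched a gene of that table and had 14 windows, with 4 for Igf2 and 2 for Igfbp2. Of these, 6 windows of 5 members held a GC box, namely those of Igf1r, Igf2r, Igfbp7, 1 of Igfbp2 and 2 of Igf2. The TATA letters occurred in the windows of Igfbp4 and Igfbp6. The share of G and C was 77.6% for Igf1r, 69.2% for Igf2r and 74.0% for Igfbp7, beside a median of 52.4% over all windows. High shares were not particular to these genes: the windows of the other members ran from 47.6% (Igf2) to 73.2% (Igfbp3), with 69.2% for Igfbp4. A match describes the letters of the window and was not tested as a binding site.

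Array medians ran from 3.01 to 3.05, and Pearson's r across all rows, which are not independent replicates, was 0.982 between the knockout arrays, 0.981 between the control arrays and 0.974 to 0.980 across groups. With 2 arrays against 2, a two-sided exact permutation test cannot give a p below 0.333. Mmp14 itself read 8.27 and 8.19 in the knockout arrays and 8.71 and 9.05 in the control arrays, a log2 difference of -0.65 (SE 0.17) that did not pass (limma, adjusted p = 0.319). Where the probes of that row lie relative to the floxed exons is not known here, which limits it as a check of the genotype labels. Tagln read 10.41 and 9.81 in the knockout arrays and 10.46 and 9.77 in the control arrays, and Apoe, disrupted in all mice, read 4.80 and 4.45 in the knockout arrays and 4.97 and 5.0 in the control arrays. Of 12 smooth muscle marker genes, all 12 were above the filter level. Their list mean was 6.26 and 5.87 in knockout arrays and 6.04 and 5.96 in control arrays. Acta2, smooth muscle alpha actin, was the brightest, at 11.40 and 10.89 in the knockout arrays and 11.33 and 11.05 in the control arrays. Itga8, Des, Mylk and Synpo2 were much dimmer, with group means from 3.38 to 3.82. Of the 12 smooth muscle markers, 5 were higher and 7 lower. The groups did not overlap for 3 of the 12, against 44.3% of all genes tested: Actg2 (1.14), Smtn (-0.55) and Myocd (-0.14, with a mean near the filter level). Markers of other cell types also differed in level between the groups. All 15 macrophage markers were higher in the knockout arrays, 13 of them without overlap, against 16.7% of all genes tested. Their list mean log2 level was 7.89 and 8.16 in knockout arrays and 7.02 and 6.98 in control arrays. Of 12 tested endothelial markers, 9 were lower, all without overlap, against 27.5% of all genes tested. The other 3 were higher, of which Kdr was without overlap. The list mean was 4.08 and 4.14 in knockout arrays and 5.23 and 4.94 in control arrays, and Tek and Cldn5 lay below the filter level. Of 9 tested fibroblast markers, 5 were higher and 4 lower (list mean 5.92 and 5.81 in knockout arrays, 5.66 and 6.08 in control arrays), and Pi16 and Clec3b lay below the filter level.

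**Figure D1:**
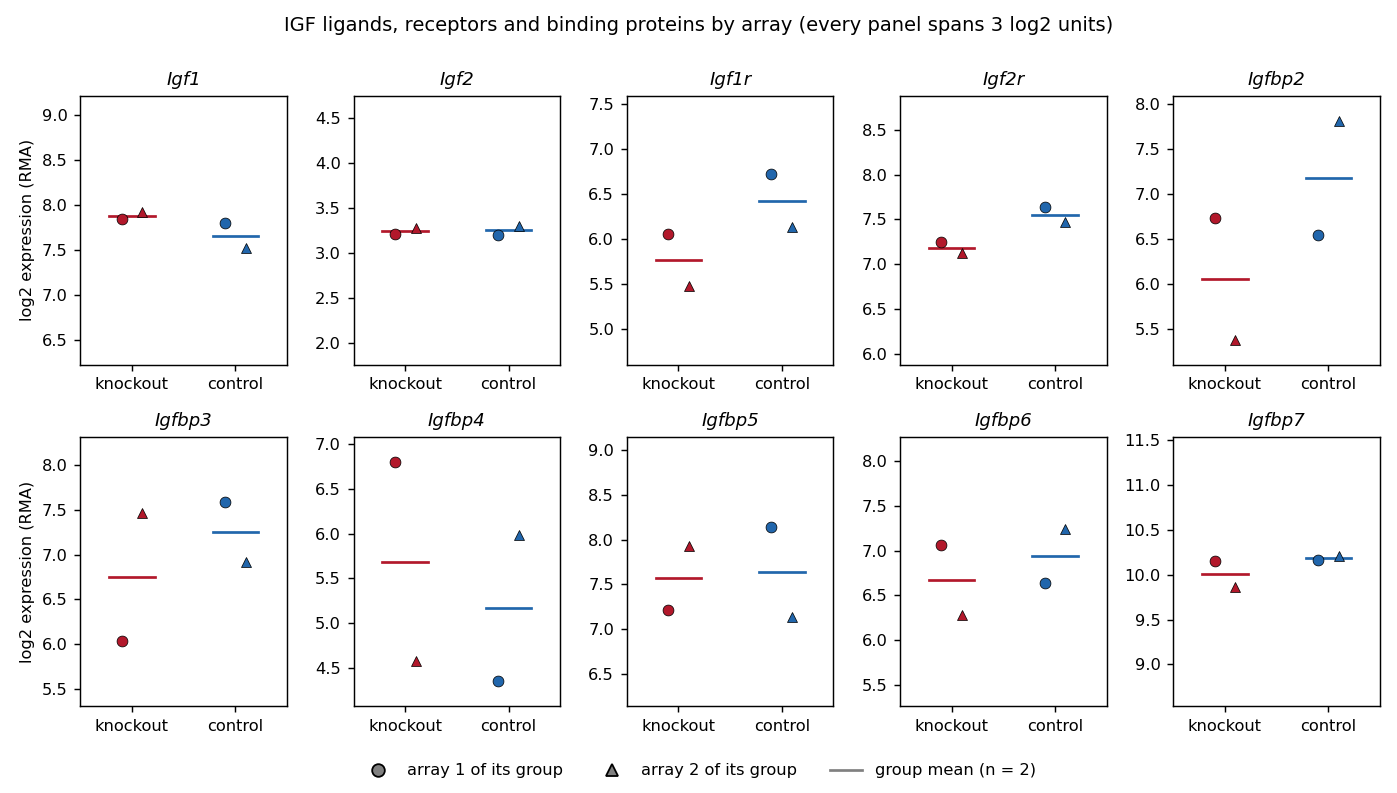
Log2 expression of the 10 IGF system genes on each array, knockout left of control. Circles are array 1 and triangles array 2 of a group, horizontal lines are group means (n = 2), and each panel spans 3 log2 units on its own axis, so levels should not be read between panels. Igf1r and Igf2r have both knockout points below both control points, while Igfbp2, Igfbp3, Igfbp4, Igfbp5 and Igfbp6 spread widely within each group.

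The ligands differed little between the groups. Igf1 read 7.84 and 7.92 in the knockout arrays and 7.80 and 7.52 in the control arrays. The groups did not overlap, but the lower knockout array stood just above the higher control array. The log2 difference of 0.23 (SE 0.16, 95% interval -0.20 to 0.65) corresponds to 1.17 times the control level and did not pass (limma, adjusted p = 0.634). Macrophages are a known source of Igf1, and the macrophage markers, with a median log2 difference of 1.03, were higher in the same arrays. Their part in the Igf1 value was not tested. In RNA of whole cultures, fewer cells of a type and less RNA per cell cannot be told apart.

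Igf2, the fetal growth ligand expressed from the paternal allele, read 3.21 and 3.28 in the knockout arrays and 3.21 and 3.30 in the control arrays. All 4 values were close to the filter level of 3.02, and no background level was measured, so whether the row carries signal in these cells cannot be told. Its groups overlapped, with a log2 difference of -0.01 (SE 0.14, 95% interval -0.37 to 0.35; limma, adjusted p = 0.990).

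Both receptors were lower in the knockout arrays. Igf1r, the signalling receptor, read 6.06 and 5.48 in the knockout arrays and 6.72 and 6.13 in the control arrays. The groups did not overlap, although the higher knockout array and the lower control array lay close to each other. Its log2 difference was -0.66 (SE 0.30, 95% interval -1.44 to 0.12), 0.634 times the control level (limma, adjusted p = 0.485). In each group array 1 stood above array 2 by almost the same amount, 0.58 in the knockouts and 0.59 in the controls, so that each group's spread was of about the size of the difference between groups. Igf1r is also expressed by endothelial cells, whose markers had a median log2 difference of -0.68 between the same groups. The median was -2.49 with a stricter filter (mean over the 4 arrays at least 4.90, the 75th percentile of all rows). Pecam1 and Ptprb passed that filter only through their control arrays, so the stricter median is partly set by the filter. Pecam1, Cdh5, Emcn and Ptprb had the largest differences of the list, at -2.49, -2.51, -2.48 and -2.88. Kdr (0.32, without overlap), Vwf (0.29) and Flt1 (0.10) were higher in the knockout arrays. The part of these markers in the Igf1r value was not tested.

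Igf2r, the clearance receptor of IGF2, read 7.24 and 7.12 in the knockout arrays and 7.64 and 7.47 in the control arrays. Both knockout arrays lay clearly below both control arrays, and the arrays of a group lay close together. The log2 difference of -0.37 (SE 0.15, 95% interval -0.76 to 0.02) was 0.774 times the control level (limma, adjusted p = 0.445). Igf2r had the smallest unadjusted p of the family, 0.0571, which ranked 1610 among the 12550 genes. M6pr, the cation-dependent mannose 6-phosphate receptor that shares its enzyme-sorting role, read 8.60 and 8.73 in the knockout arrays and 8.41 and 8.48 in the control arrays, with a log2 difference of 0.22 (SE 0.14; limma, adjusted p = 0.594). The 2 mannose 6-phosphate receptors thus had opposite signs, and the contrast between them was not tested.

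Igfbp7 encodes a vessel-associated protein with low affinity for IGFs. It read 10.16 and 9.87 in the knockout arrays and 10.16 and 10.20 in the control arrays. Knockout array 1 lay within 0.01 of the lower control array, so the lack of overlap rests on a very small gap. The log2 difference was -0.17 (SE 0.16, 95% interval -0.60 to 0.25; limma, adjusted p = 0.732).

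**Figure D2:**
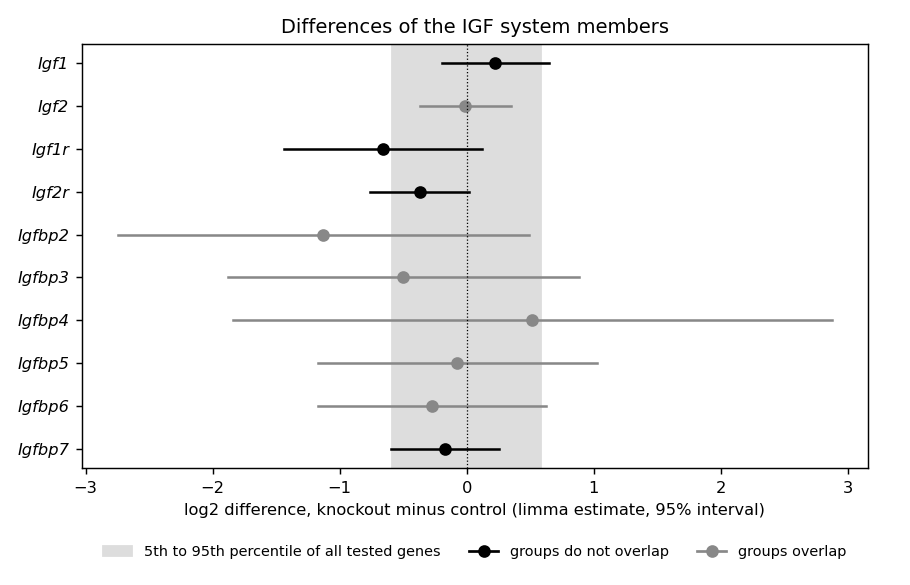
Log2 differences, knockout minus control, of the 10 members with 95% intervals from limma (n = 2 arrays per group). The grey band spans the 5th to 95th percentile of all 12550 tested genes, -0.59 to 0.59. Every interval includes 0, and the intervals of Igfbp2, Igfbp3 and Igfbp4 are the widest.

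Igfbp2 had the largest difference of the family and one of its widest spreads. Its protein holds an integrin-binding RGD sequence beside its IGF-binding domains. Igfbp2 read 6.73 and 5.37 in the knockout arrays and 6.54 and 7.82 in the control arrays. Knockout array 1 lay above control array 1, so the groups overlapped. The log2 difference of -1.13 (SE 0.62, 95% interval -2.75 to 0.49) was 0.457 times the control level and exceeded in size those of 97.5% of the tested genes (limma, adjusted p = 0.543). It ran from -1.81 without knockout replicate 1 to -0.45 without knockout replicate 2.

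Igfbp4 encodes a binding protein that restrains IGF action until the protease PAPP-A cuts it. It read 6.79 and 4.58 in the knockout arrays and 4.36 and 5.98 in the control arrays. The highest and the second lowest of the 4 values were both knockouts, so the group means, 5.69 ± 1.57 in the knockouts and 5.17 ± 1.15 in the controls (SD, n = 2 each), describe no single array. The log2 difference of 0.52 (SE 0.90, 95% interval -1.84 to 2.88; limma, adjusted p = 0.862) was 1.63 without knockout replicate 2 and -0.59 without knockout replicate 1. The pooled spread between arrays of a group was 1.37, above that of 99.8% of the tested genes.

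Igfbp6 encodes the binding protein that prefers IGF2 to IGF1. It read 7.06 and 6.29 in the knockout arrays and 6.64 and 7.24 in the control arrays, with overlap between the groups. The log2 difference was -0.27 (SE 0.34, 95% interval -1.17 to 0.63; limma, adjusted p = 0.801). Igfbp2, Igfbp4 and Igfbp6 shared one array pattern, high in knockout array 1 and control array 2 and low in the other two.

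Igfbp3, whose protein carries most of the IGF in plasma, read 6.04 and 7.46 in the knockout arrays and 7.58 and 6.92 in the control arrays. Knockout array 1 was the lowest and control array 1 the highest of the 4 values, and knockout array 2 lay between the controls. Igfbp3 had a log2 difference of -0.50 (SE 0.53, 95% interval -1.88 to 0.88; limma, adjusted p = 0.759).

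Igfbp5, whose protein binds extracellular matrix, read 7.21 and 7.92 in the knockout arrays and 8.14 and 7.14 in the control arrays. Both knockout values lay between the control values. The log2 difference was -0.07 (SE 0.42, 95% interval -1.17 to 1.03; limma, adjusted p = 0.967). Igfbp3 and Igfbp5 shared the opposite array pattern, low in knockout array 1 and control array 2.

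For 5 binding proteins and Igf1r the 2 arrays of a group lay far apart in both groups. For Igfbp4, array 1 minus array 2 was 2.21 in the knockouts and -1.62 in the controls. For Igfbp2 these gaps were 1.35 and -1.28, and for Igfbp6 0.77 and -0.60. For Igfbp3 they were -1.43 in the knockouts and 0.66 in the controls, and for Igfbp5 -0.71 and 1.00. All 5 binding proteins thus had gaps of at least 0.5 in both groups, in opposite directions, a size chosen after the values were seen. Over all tested genes 263 (2.10%) did, of which 120 were high in knockout array 1 and control array 2 and 143 in the other 2 arrays. A further 321 genes (2.56%) had gaps of at least 0.5 in both groups in the same direction, Igf1r among them (0.58 and 0.59). The title numbers of the arrays are not stated to mark pairs, so whether the 2 gaps of a gene run the same or the opposite way may be arbitrary. Over all tested genes the gaps of the 2 groups were nearly unrelated (r = 0.05, a description across genes that share the 4 arrays).

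**Figure D3:**
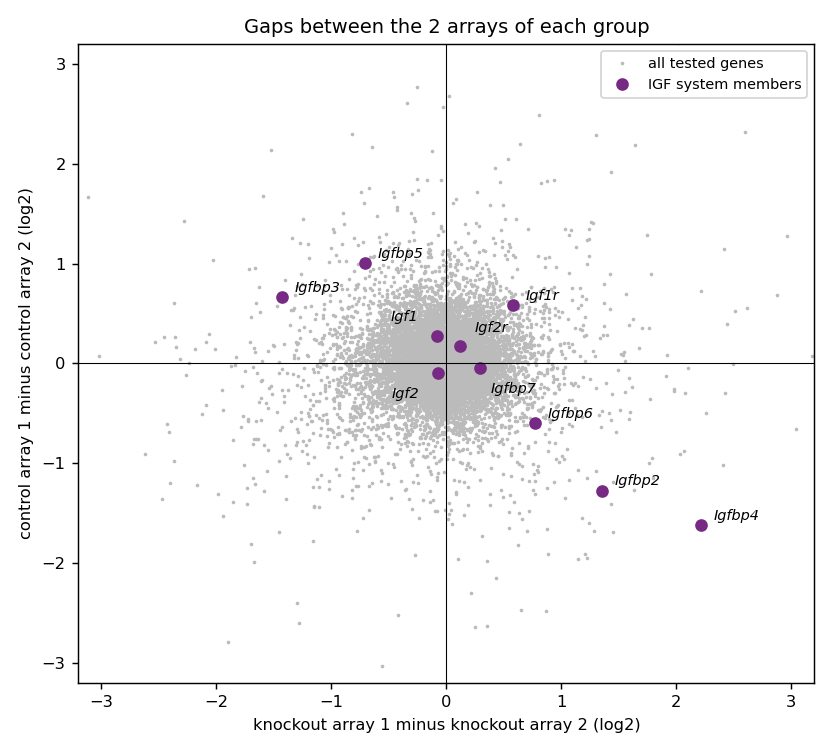
Knockout array 1 minus knockout array 2 (horizontal axis) against control array 1 minus control array 2 (vertical axis), in log2 units, for all tested genes (grey) and the 10 members (purple), with 15 other genes outside the axes. Igfbp2, Igfbp4 and Igfbp6 lie at the lower right and Igfbp3 and Igfbp5 at the upper left, while Igf1, Igf2, Igf2r and Igfbp7 lie near the centre and Igf1r at the upper right.

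Few genes of the marker lists had such gaps in opposite directions. The fibroblast marker Lum, the proteoglycan lumican, was high in the arrays where Igfbp2, Igfbp4 and Igfbp6 were high, at 5.25 and 4.62 in the knockout arrays and 3.29 and 5.11 in the control arrays. Dpt, dermatopontin, had the pattern of Igfbp3 and Igfbp5, at 4.40 and 5.28 in the knockout arrays and 6.87 and 5.84 in the control arrays. The 2 genes ran opposite to each other, and the other 7 of 9 tested fibroblast markers had no opposite gaps of at least 0.5. Below that size, some of the 7 had gaps in the directions of Lum. In the knockouts and the controls these were 0.45 and -0.93 for Dcn, 0.21 and -0.90 for Tcf21, and 0.02 and -1.40 for Pdgfra. They were 0.70 and -0.08 for Thy1 and 0.07 and -0.07 for Col1a1. Fbln1 and Col1a2 had negative gaps in both groups. Opposite gaps of that size were found for 1 of 12 endothelial markers (Cdh5), 0 of 15 macrophage markers and 0 of 12 smooth muscle markers. They were found for 2 of 11 genes with an IGFBP-like domain, 1 of 7 imprinted genes and 1 of 12 protease genes. Gaps of at least 0.5 in the same direction were found for 3 of 12 smooth muscle markers (Tagln, Cnn1 and Actg2) and 1 of 15 macrophage markers (Mrc1). The same held for 1 of 11 genes with an IGFBP-like domain, 2 of 7 imprinted genes and 1 of 12 protease genes. Lum, Dpt and the other fibroblast markers were named here after their values were seen. The part of fibroblasts in the binding protein values was not tested.

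The genes whose values lay closest to those of Igfbp4, after each gene was centred on its mean over the 4 arrays, were Ms4a4d, Slc1a6 and Cygb, at Euclidean distances of 0.56, 0.57 and 0.67 log2 units. Cygb, which encodes cytoglobin, read 7.55 and 6.12 in the knockout arrays and 5.27 and 6.67 in the control arrays. Closest to Igfbp2 were Vegfd, Cyp1b1 and Aldh1a2, at distances of 0.35, 0.41 and 0.41. Vegfd, a lymphangiogenic growth factor of the VEGF family, read 6.63 and 4.87 in the knockout arrays and 6.34 and 7.34 in the control arrays. With 4 arrays many genes have like profiles, and the distances are given as a description.

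The chromosomal neighbours Igfbp2 and Igfbp5, which lie next to each other among the coding genes of chromosome 1, did not share a profile: Igfbp2 was high and Igfbp5 low in knockout array 1 and in control array 2. Igfbp3 lies beside Igfbp1 on chromosome 11, and Igfbp1, a binding protein known from liver, had values of 2.53 and 2.77 in the knockout arrays and 2.54 and 2.63 in the control arrays, below the filter level.

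Other genes of the IGF system were read from lists of related genes, and 0 of them passed the test (limma, adjusted p under 0.05). Among 14 further ligands, receptors and partners, 10 had a row with a symbol of its own. Igfbp1, Igfals, Insrr, Ins2 and Igfbpl1 lay below the filter level, and 5 were tested, 3 lower and 2 higher, with a median log2 difference of -0.11. That median was -0.25 without knockout replicate 2, -0.02 with no filter and -0.04 with the stricter filter, the last 2 over other sets of genes. Ghr, the growth hormone receptor, which drives Igf1 transcription in liver, read 6.26 and 6.06 in the knockout arrays and 7.72 and 7.44 in the control arrays. Both knockout arrays lay well below both control arrays. The log2 difference was -1.42 (SE 0.17), larger in size than that of any of the 10 members (limma, adjusted p = 0.155). Igf2bp3, an RNA-binding protein of the Igf2 message, read 3.55 and 3.47 in the knockout arrays and 4.99 and 4.03 in the control arrays, a log2 difference of -1.0 (SE 0.34; limma, adjusted p = 0.385). Insr, the insulin receptor, which pairs with IGF1R in hybrid receptors, read 5.38 and 5.66 in the knockout arrays and 5.65 and 5.60 in the control arrays, so the groups overlapped.

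Signalling genes below the receptors had no common direction, with 13 of 29 tested genes higher and 16 lower and a median log2 difference of -0.10. The median was -0.001 without control replicate 1 and -0.17 without control replicate 2. The groups did not overlap for 2 higher and 7 lower genes of the 29, no larger a share than over all genes tested (16.7% higher and 27.5% lower). Irs1, the docking protein that IGF1R and the insulin receptor phosphorylate, had the largest difference, at 4.76 and 4.76 in the knockout arrays and 6.39 and 5.91 in the control arrays. The knockout arrays were alike and lay more than 1 log2 unit below either control array. Its log2 difference was -1.40 (SE 0.20), 0.380 times the control level (limma, adjusted p = 0.171). Irs2, the other main docking protein, read 5.05 and 5.51 in the knockout arrays and 4.60 and 5.61 in the control arrays, with overlap and a log2 difference of 0.18 (SE 0.38).

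Socs2, a feedback inhibitor of growth hormone signalling, read 3.71 and 4.91 in the knockout arrays and 5.07 and 5.60 in the control arrays, a log2 difference of -1.02 (SE 0.44; limma, adjusted p = 0.472). Rictor, a subunit of the kinase complex mTORC2, read 5.26 and 5.31 in the knockout arrays and 5.84 and 6.03 in the control arrays, a log2 difference of -0.65 (SE 0.15; limma, adjusted p = 0.268). Ptpn1, a phosphatase that acts on the insulin and IGF1 receptors, was on the other side, at 5.53 and 6.11 in the knockout arrays and 4.91 and 5.27 in the control arrays, a log2 difference of 0.72 (SE 0.26; limma, adjusted p = 0.398). The kinase genes Akt1 and Akt2 had log2 differences of -0.24 and 0.05. The macrophage and endothelial marker lists, with medians of 1.03 and -0.68, differed between the same groups as these genes did. Without single replicates the macrophage median ran from 0.78 (without knockout replicate 2) to 1.22 (without control replicate 1). The endothelial median then ran from -0.93 (without control replicate 2) to -0.61 (without control replicate 1). The endothelial median was -2.49 with the stricter filter, which Pecam1 and Ptprb passed only through their control arrays. The part of these marker lists in the values of the signalling genes was not tested.

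**Figure D4:**
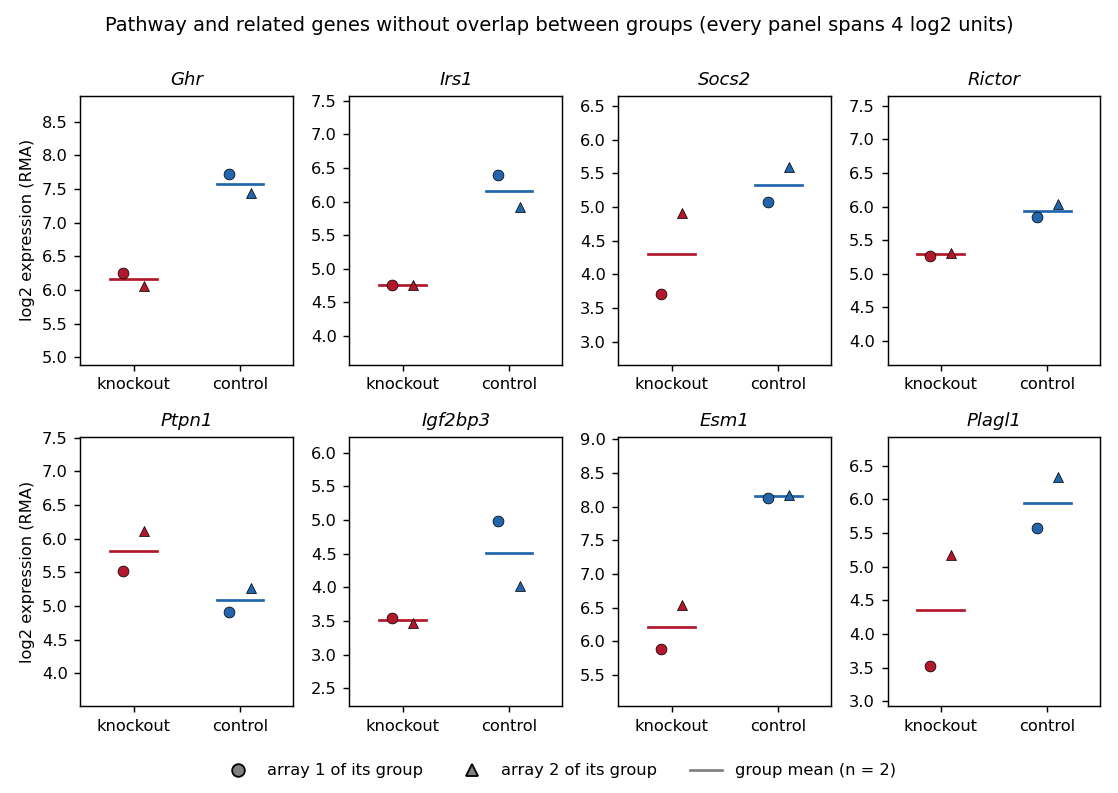
Log2 expression on each array of 8 genes of the related lists whose groups do not overlap, knockout left of control, with symbols as circles for array 1 and triangles for array 2 and lines for group means (n = 2). Each panel spans 4 log2 units on its own axis. Ghr, Irs1, Rictor and Esm1 have arrays of a group close together beside the gap between groups, and Ptpn1 is the one gene shown that is higher in the knockouts. The 8 genes were picked by hand, so their directions do not stand for the lists. Also without overlap but not shown are M6pr, Ctsd and Gsk3b, which were higher. Kazald1, Crim1, Ndn, Meg3 and others, which were lower, are not shown either. Over all genes tested, 16.7% were higher and 27.5% lower without overlap.

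Proteases that cut IGF-binding proteins, with their inhibitors, showed no common direction. Of 12 tested genes 6 were higher and 6 lower, the median log2 difference was 0.01, and the groups did not overlap for 1 gene, Ctsd, against 44.3% of all genes tested. Without knockout replicate 2 this median was -0.15, and without knockout replicate 1 it was 0.12. Pappa, which encodes PAPP-A, the protease of IGFBP4 and IGFBP5, read 6.81 and 5.87 in the knockout arrays and 6.90 and 5.07 in the control arrays, a log2 difference of 0.36 (SE 0.68) within wide spread. Its inhibitors Stc1 and Stc2, the stanniocalcins, had log2 differences of -0.28 (SE 0.36) and 0.11 (SE 0.15). Ctsd, the lysosomal protease cathepsin D, read 11.04 and 11.31 in the knockout arrays and 11.00 and 10.93 in the control arrays, a log2 difference of 0.22 (SE 0.16; limma, adjusted p = 0.650).

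Among proteins that share the IGFBP-like N-terminal domain, 10 of 11 tested genes were lower and 1 was higher, with a median log2 difference of -0.24, which was 0.08 without knockout replicate 2, -0.52 without knockout replicate 1 and -0.12 without control replicate 2. Over all genes tested 58.3% were lower. Esm1, the endothelial proteoglycan endocan, read 5.89 and 6.53 in the knockout arrays and 8.12 and 8.18 in the control arrays. Its log2 difference of -1.94 (SE 0.25) was the largest of the IGF-related lists (limma, adjusted p = 0.155), and the endothelial markers, with 9 of 12 lower, were lower in the same arrays. Crim1, a membrane protein that binds BMPs, had a log2 difference of -0.47 (SE 0.33), and Kazald1 one of -0.65 (SE 0.35). Ccn3 was the higher gene, at 6.0 and 4.53 in the knockout arrays and 4.16 and 4.85 in the control arrays, an array pattern like that of Igfbp4.

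All 7 tested genes of a list of imprinted growth genes were lower in the knockout arrays, 3 of them without overlap. Their median log2 difference was -0.14, beside 58.3% lower and 44.3% without overlap over all genes tested. Dlk1 (-0.08), Peg3 (-0.07), Grb10 (-0.13) and Mest (-0.14) had small differences, with overlap. Cdkn1c, Phlda2, Slc38a4 and Gnas lay below the filter level, and of these Gnas was higher in the knockout arrays (0.06). Leaving out single replicates took the median from -0.45 (without either knockout replicate 2 or control replicate 2) to -0.14. With the stricter filter, over fewer members, it was -0.46, and Plagl1, with a knockout mean of 4.35, passed that filter only through its control arrays. Plagl1, a zinc finger transcription factor, read 3.52 and 5.18 in the knockout arrays and 5.57 and 6.33 in the control arrays, a log2 difference of -1.60 (SE 0.61; limma, adjusted p = 0.424). Ndn, which encodes necdin, differed by -0.76 (SE 0.34) and the noncoding RNA gene Meg3 by -0.46 (SE 0.25). Grb10, an adaptor that inhibits IGF1R and insulin receptor signalling, read 6.89 and 6.87 in the knockout arrays and 6.73 and 7.28 in the control arrays, so the groups overlapped.

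**Figure D5:**
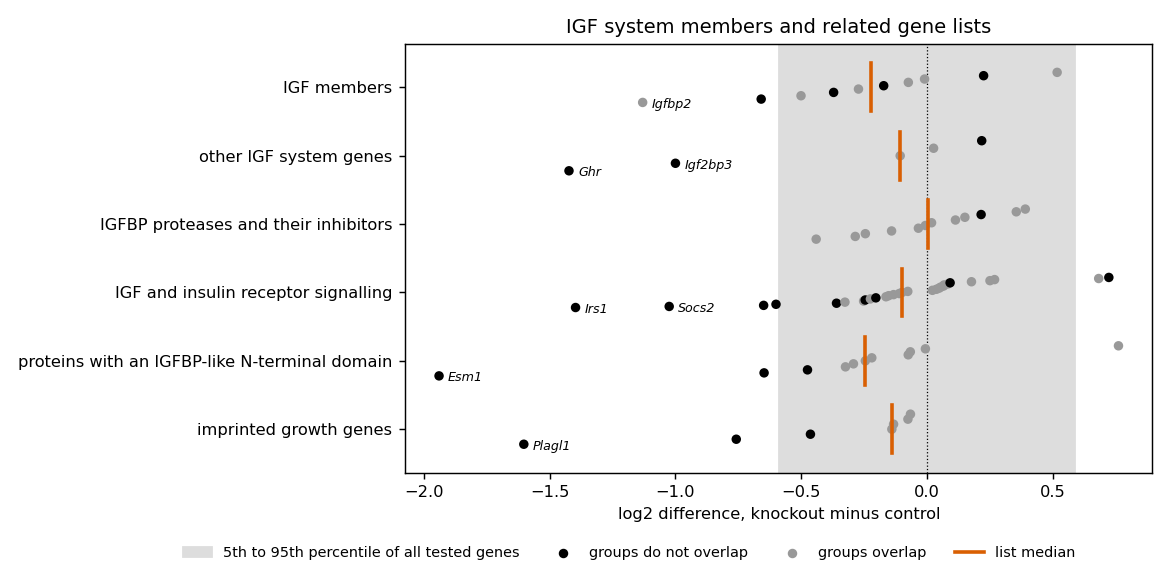
Log2 differences, knockout minus control, of every tested gene in the family and the 5 related lists. Points are genes, black where the groups do not overlap and grey where they do, orange lines are list medians, and the grey band spans the 5th to 95th percentile of all tested genes. Igfbp2, Ghr, Igf2bp3, Irs1, Socs2, Esm1 and Plagl1 lie farthest left, and the medians lie between -0.24 and 0.01.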

How the data were processed

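Total RNA (10 ng) from each culture, per the labels' protocols, was amplified with an Ovation PicoSL kit and measured on Mouse Gene ST 2.1 strips, per the design text. Per the submitters' processing notes the authors used RMA, and the deposited values are log2 expression levels of 41345 rows, from 1.17 to 12.4, a range from which the log base was inferred. The sources used here give no software version, chip definition or genome build.

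Rows were named through the platform annotation: 23521 had 1 symbol, 1814 several, and 16010 were not listed and are unnamed here. The brightest row was kept for each of 1082 genes with several rows. Among them were Irs1, Socs2 and Plagl1, with 2 rows each, of which the dimmer is not shown. The NCBI gene numbers of all 10 members matched RefSeq (GRCm38.p6). Genes with a mean of at least the median of all row means (3.02) were tested. The model had a group term alone (knockout minus control) and was fitted in limma 3.58.1 under R 4.3.3 (lmFit, then eBayes), with Benjamini-Hochberg adjustment over 12550 genes and 95% intervals. The code of the fit was run on data simulated with known shifts from limma's own variance model. That run checks the code alone, and not how well the model suits these arrays. Figures used matplotlib 3.10.9.

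The design text names separate pairs of mice, so p-values cover variation among mice, cultures and hybridisations at once. The title numbers are not stated to mark these pairs, so the main fit had no pair term and would ignore any pairing of the arrays. Precision is limited by the number of arrays.

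Members and gene lists were chosen with earlier results of these data known. Named genes were all 10 members, Mmp14, Tagln and Apoe, and within each list up to 4 tested genes without overlap, by size of difference. Marker lists are given as counts and levels. For the members with the highest and lowest difference the 3 genes with the most similar centred values were named. Other genes were named after their values were seen. Listed genes without a row of their own were not analysed here. Alternatives were a replicate block, no filter or a stricter one, a second quantile normalisation, median centring, the mean of a gene's rows, other variance models, array weights, a threshold of 0.1 and leaving out each array.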

Additional observations from a re-analysis of the deposited data

How the results depend on the processing

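Over 14 alternatives, 0 members and 0 genes were called by limma, with adjusted p-values of the members no lower than 0.270, and the members kept the sign of their difference in 130 of 139 cases. The 9 changes of sign all came from leaving out 1 array: without single replicates the difference ran from -0.057 to 0.039 for Igf2, from -1.21 to 0.21 for Igfbp3, from -0.59 to 1.63 for Igfbp4, from -0.58 to 0.43 for Igfbp5 and from -0.66 to 0.11 for Igfbp6. Without single replicates Igf1 (0.09 to 0.37), Igf1r (-0.95 to -0.37), Igf2r (-0.46 to -0.28), Igfbp2 (-1.81 to -0.45) and Igfbp7 (-0.32 to -0.03) kept their sign. At an unadjusted p under 0.05, 1 member was found, Igf2r, with no filter on dim genes, with arrays centred on their median and with either trended variance, and 0 to 2 without single replicates. The count of all such genes was 929 with the stricter filter, which tested 6787 genes and 9 members, and 966 to 1532 without single replicates, the lowest without control replicate 1. Members without overlap numbered 4 with all arrays and 6 to 8 without single replicates, where 3 arrays overlap less by construction.

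With the title number as a replicate block, 0 genes were called, 1527 genes had an unadjusted p under 0.05 and 1 member did, Igf1r (unadjusted p = 0.0118; limma, adjusted p = 0.270). The numbers are not stated to mark pairs, so the block was not used as a pairing in the main fit. The gaps between arrays of the 2 groups correlated at 0.05 over all tested genes, which cannot decide whether the arrays were paired. Igf2 lies close to the filter level.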
